A study of Mus musculus with 4 samples.

Results

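The Ms4a genes code for a family of small tetraspan membrane proteins, and those expressed by macrophages lie, with other members of the family between them, in a single cluster on mouse chromosome 19. The set described here was chosen by gene name, with earlier results of these data known: Ms4a7, Ms4a4a, Ms4a4b, Ms4a4c, Ms4a6b, Ms4a6c, Ms4a6d and Ms4a8a. Of these 8 genes, 7 had a row in each of the 4 gene tables of the series, out of 23337 gene names, and Ms4a4a was not analysed here. RNA came from liver macrophages sorted as Kupffer cells, which reside in the vessels of that organ, of Lyz2cre-RosaYFP reporter mice of both sexes aged 6 to 8 weeks. The groups were 2 YFP+ and 2 YFP- libraries, and both carry the same alleles: Cre driven by Lyz2, the lysozyme gene of myeloid cells, and a yellow fluorescent protein (YFP) reporter at the Rosa locus that Cre switches on. A YFP+ cell, or a precursor of it, has therefore expressed Cre, and the comparison asks how the transcripts of YFP+ and YFP- cells differ. Each group has 1 library whose title begins with M and 1 whose title begins with FM, which the labels leave unexplained. Nothing in them tells whether animals were pooled or whether each library is a different animal, and the p-values measure only the spread between these libraries, which may be technical.

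The best known MS4A protein is CD20, the product of Ms4a1 on B cells. Ms4a2 codes for the beta chain of the high-affinity IgE receptor of mast cells and basophils. The members on myeloid cells act mostly as partners of other receptors: in mouse macrophages MS4A4A associates with the beta-glucan receptor Dectin-1, and MS4A6D forms a complex with the Kupffer cell receptor VSIG4 that restrains the NLRP3 inflammasome. Ms4a8a has been described in mouse macrophages of the alternatively activated and tumour-associated kind, Ms4a7 is a marker of differentiated macrophages, and Ms4a4b is best known from mouse T cells, where it restrains proliferation. In humans, variation in the orthologous cluster is associated with the level of soluble TREM2, a lipid receptor of macrophages and microglia.

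All values are TPM, a transcript abundance scaled by gene length and to a fixed sum of 1000000 per library. Mean read coverage at 1 FPKM (a fragment count scaled by gene length and library size) was 2.59 to 9.19 in the 4 libraries. The YFP+ libraries were less diverse: 10302 and 7386 genes reached 1 TPM in the YFP+ M and FM libraries, against 12434 and 12829 in the YFP- M and FM libraries. The 100 most abundant genes took 54.0% and 66.1% of the TPM in the YFP+ libraries, against 40.9% and 29.7% in the YFP- libraries, and the part of this in the lower values of other genes was not tested. Markers of another macrophage were present in these liver libraries: the 10 genes of a microglia list summed to 1021 and 75.5 TPM in the YFP+ M and FM libraries, against 17678 and 16425 TPM in the YFP- M and FM libraries, with 0 called higher and 10 lower. Their part in the Ms4a values was not tested. The 10 genes of a Kupffer cell list summed to 32011 and 28954 TPM in the YFP+ libraries, against 5349 and 11334 TPM in the YFP- libraries, so Kupffer cell markers were present in every library. In both YFP- libraries the microglia sum is above the Kupffer cell sum, which goes against their label as liver macrophages. Each difference given below is one between libraries that also differ in these markers, and YFP status and this difference in cell markers cannot be told apart. Limma with Benjamini-Hochberg adjustment tested 12251 genes as log2(TPM + 1), a scale on which folds of low genes come out too small, and called 0.522% of them higher and 39.5% lower in YFP+ libraries at an adjusted p of 0.05. Over all tested genes the median log2 fold change was -1.73 (-1.01 for the libraries with titles in M and -2.48 for those in FM, a split by title start alone), so a gene with a log2 fold change near 0 lies far above the typical gene. The split of calls moved with scaling, from 64 higher and 4834 lower on the deposited values to 148 and 205 under quantile normalization, 658 and 2195 under median-ratio scaling, and 65 and 40 under cyclic loess, while the median moved to -0.03, -0.50 and -0.01. Each analysed gene of the Ms4a set is therefore given as fold change and as distance from the median of all tested genes. Most other named genes are given as fold change alone, to be read against the median of -1.73 on the deposited values.

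Ms4a transcripts were of moderate abundance and their order differed between the groups. The 7 genes together reached 478.0 and 222.9 TPM in the YFP+ M and FM libraries, against 531.7 and 421.2 TPM in the YFP- M and FM libraries. In YFP+ libraries the order of mean TPM was Ms4a6d, Ms4a8a, Ms4a6c, Ms4a6b, Ms4a7, Ms4a4c and Ms4a4b, and every pair of neighbours in that order overlapped between libraries. In YFP- libraries the order was Ms4a6b, Ms4a6d, Ms4a6c, Ms4a8a, Ms4a7, Ms4a4b and Ms4a4c, and the neighbours Ms4a6d and Ms4a6c were the 1 pair that did not overlap. Among all 23337 gene names Ms4a6d ranked at place 628 and 727 in the YFP+ M and FM libraries, against 1200 and 1393 in the YFP- libraries.

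**Figure D1:**
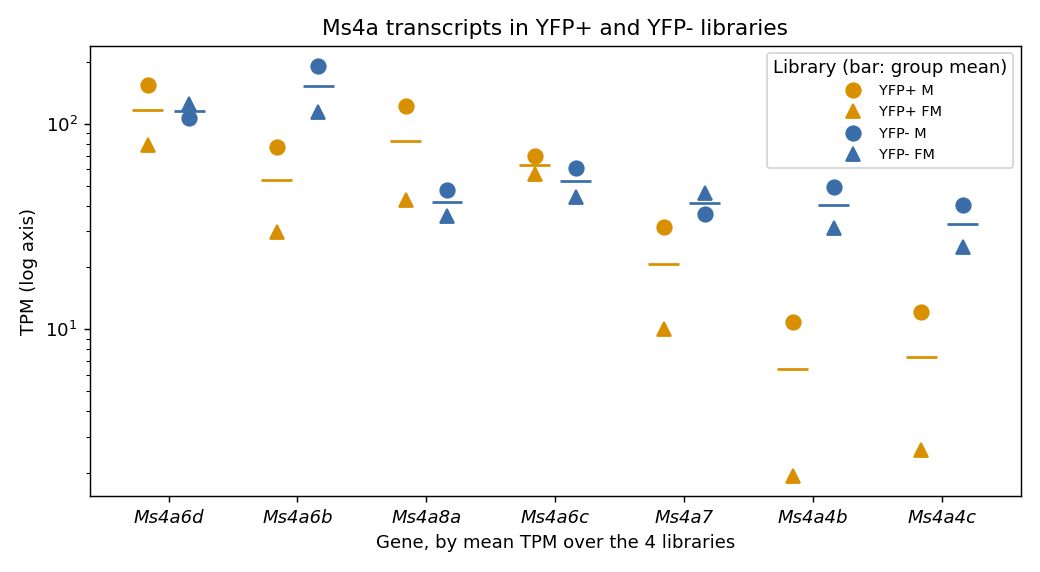
TPM of the 7 Ms4a genes (log axis) in each library, YFP+ left of YFP-, with circles for M and triangles for FM libraries and a bar at the mean of each group. Ms4a4b and Ms4a4c lie at or under 12.1 TPM in both YFP+ libraries and at or above 25.2 TPM in both YFP- libraries, while the groups overlap for Ms4a8a, Ms4a6c and Ms4a6d.

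The comparison of YFP+ with YFP- libraries called 1 of the 7 genes, Ms4a4b, which fell, and none that rose. In all, 39.5% of tested genes were called lower and 0.522% higher. All 7 passed the filter of at least 1 TPM in at least 2 libraries, and each was at or above 1.93 TPM in all 4 libraries. The median log2 fold change of the 7 genes was -1.15, against -1.73 for all tested genes. Groups did not overlap, with both YFP+ libraries lower, for Ms4a4b, Ms4a4c, Ms4a6b and Ms4a7, a pattern that 79.7% of all tested genes show. For no member were both YFP+ libraries higher, as they were for 2.50% of tested genes. With 2 libraries in each group the smallest two-sided p of an exact permutation test is 0.333, and limma gave the variance trend infinite weight here, so each standard error (SE) rests on the trend over all genes and not on a gene's own libraries.

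Ms4a4b and its neighbour Ms4a4c were the members furthest down. Ms4a4b (chromosome 19, 11443558 to 11463548, plus strand, GRCm38) had 10.9 TPM in YFP+ M and 1.93 TPM in YFP+ FM, against 49.1 TPM in YFP- M and 31.2 TPM in YFP- FM. Both YFP+ libraries lie below both YFP- libraries, and the YFP+ FM library is the lowest. The mean was 6.42 ± 6.34 TPM in YFP+ and 40.1 ± 12.7 TPM in YFP- libraries (SD, n = 2 each), with a log2 fold change of -2.76 (SE 1.13, limma adjusted p = 0.0401), 1.03 below the median of all tested genes. Ms4a4c (11407661 to 11427246, plus strand) had 12.1 and 2.59 TPM in the YFP+ M and FM libraries, against 40.1 and 25.2 TPM in the YFP- M and FM libraries, in the same pattern. Its log2 fold change of -2.26 (SE 1.13, limma adjusted p = 0.0891) did not pass and lies 0.53 below the median of all tested genes. The call of Ms4a4b ended under 13 of 16 alternative settings, with limma adjusted p between 0.00147 and 0.498 and a negative fold change under all 16. It ended without YFP+ FM (-1.75), YFP- M (-2.44) or YFP- FM (-3.09). Other filters, no mean trend, the title start as a block and single rows leave the fold change at -2.76. The 16 settings are therefore not separate checks of its sign. Without YFP+ M both Ms4a4b (-3.78) and Ms4a4c (-3.19) were called lower, as were 67.5% of all tested genes (0.367% higher), and both were called without a mean trend, where 46.0% of genes were called lower and 0.465% higher. Beside these values, of 11 tested genes of a T and NK cell list 0 were called higher and 7 lower, where 39.5% of all tested genes were called lower. The list summed to 217 and 110 TPM in the YFP+ M and FM libraries, against 1359 and 586 TPM in the YFP- M and FM libraries. Other lists fell as well, with 6 of 6 tested genes of a conventional dendritic cell list called lower. In the Kupffer cell list 4 of 10 were called higher and 0 lower. The first gene of the T and NK cell list, Cd3e, a chain of the T cell receptor complex, had 10.6 and 2.56 TPM in YFP+ and 44.7 and 42.6 TPM in YFP- libraries (log2 fold change -2.80, limma adjusted p = 0.0367). The part of any of these cell types in the values of Ms4a4b was not tested, and in these bulk libraries fewer cells of a type and less RNA per cell cannot be told apart. A monocyte list had 0 of 8 tested genes called higher and 3 lower, with sums of 1572 and 3278 TPM in YFP+ and 1832 and 1563 TPM in YFP- libraries.

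Ms4a4b and Ms4a4c are close copies of each other in their coding as well as their upstream sequence. Their coding sequences, both 681 bases long in GENCODE M21, are identical at 91.8% of positions, the highest value of any pair of members. The 250 bases before their start sites could be aligned over 233 bases with 77.3% identity. For Ms4a4c the RefSeq gene begins 2944 bases upstream of the start used here, and the stretch before that point was not searched. Both genes were lower in both YFP+ libraries, as were 79.7% of all tested genes, and a link of this to the upstream sequence was not tested. The 150 bases before each start are shown with the longest run shared by both windows, 20 bases, in capitals (RefSeq, GRCm38.p6, plus strand, chr19:11443408-11443557 and chr19:11407511-11407660).
Ms4a4b: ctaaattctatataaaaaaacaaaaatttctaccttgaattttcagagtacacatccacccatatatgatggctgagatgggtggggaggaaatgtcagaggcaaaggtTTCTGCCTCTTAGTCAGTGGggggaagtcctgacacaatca
Ms4a4c: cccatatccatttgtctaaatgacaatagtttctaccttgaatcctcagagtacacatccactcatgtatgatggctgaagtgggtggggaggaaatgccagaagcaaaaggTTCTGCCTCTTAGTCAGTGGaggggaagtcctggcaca
The letters GAGGAA, a core that ETS factors such as PU.1 can bind, were found at 64 to 59 bases before the start of Ms4a4b and 61 to 56 bases before that of Ms4a4c. On either strand this motif occurs in 23.3% of all 32851 promoter windows of 250 bases. The letters TATAAA were found in the Ms4a4b window at 140 to 135 bases and in 12.4% of all windows. Of all distinct 50-base words in the annotated transcripts, 2.4% of those of Ms4a4b and 8.2% of those of Ms4a4c also occur in another gene, and the sources used here do not say how the authors' processing split reads from such stretches. The ratio of Ms4a4b to Ms4a4c was 0.901 and 0.747 in the YFP+ M and FM libraries, against 1.22 and 1.24 in the YFP- M and FM libraries.

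The Ms4a6 genes, also close copies of each other, differed in where their groups lay, and none passed the test. Ms4a6b (11518559 to 11530403, plus strand) had 76.9 and 29.6 TPM in the YFP+ M and FM libraries, against 190.5 and 114.7 TPM in the YFP- M and FM libraries. Both YFP+ libraries are the lower ones, and the log2 fold change of -1.61 (SE 0.97, limma adjusted p = 0.153) did not pass and lies 0.12 above the median of all tested genes. Ms4a6c (11469368 to 11482196, plus strand), which lies upstream of it on the same strand, had 69.5 and 57.2 TPM in the YFP+ M and FM libraries, against 61.2 and 44.0 TPM in the YFP- M and FM libraries. The groups overlap, the log2 fold change was 0.28 (95% interval -1.69 to 2.24, limma adjusted p = 0.815), and it lies 2.01 above the median. Ms4a6d (11586606 to 11604804, minus strand), the partner of VSIG4, had 154.5 and 78.8 TPM in the YFP+ M and FM libraries, against 106.8 and 124.4 TPM in the YFP- M and FM libraries. It was the highest value of the 4 in YFP+ M and the lowest in YFP+ FM, and its log2 fold change of -0.06 (SE 0.94, 95% interval -1.90 to 1.78, limma adjusted p = 0.957) lies 1.67 above the median. Under median-ratio scaling, where 5.37% of all tested genes were called higher and 17.9% lower, Ms4a6c (1.99, limma adjusted p = 0.0114) and Ms4a6d (1.67, limma adjusted p = 0.0486) were called higher, and Ms4a6d changed sign under quantile normalization (1.08) and cyclic loess (0.87) too, without a call. The sign of Ms4a6b turned under median-ratio scaling (0.12), without a call.

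The ratio of 2 genes within a library does not depend on a scale factor between libraries. Ms4a6c stood at 0.903 and 1.93 times Ms4a6b in the YFP+ M and FM libraries, against 0.321 and 0.383 times in the YFP- M and FM libraries. Both ratios of YFP+ libraries are higher than both of YFP- libraries, and the YFP+ FM library is the only 1 of the 4 in which Ms4a6c exceeded Ms4a6b. Ratios of single pairs were not among the planned comparisons, and the share of gene pairs with such a gap was not computed. A lack of overlap is common among single genes, with 79.7% of tested genes lower in both YFP+ libraries. The coding sequences of Ms4a6b and Ms4a6c are identical at 85.3% of 645 aligned bases, those of Ms4a6b and Ms4a6d at 81.3% of 733, and those of Ms4a6c and Ms4a6d at 79.1% of 641. The longest run shared by any of 27 pairs of member promoter windows, 48 bases, lies upstream of Ms4a6b and Ms4a6c, and the third longest in that comparison was 9 bases. It ends 71 bases before the start of Ms4a6b and 2 bases before that of Ms4a6c, and is given in capitals below because the genes with this shared stretch differed in their values (RefSeq, GRCm38.p6, plus strand, chr19:11518409-11518558 and chr19:11469218-11469367).
Ms4a6b: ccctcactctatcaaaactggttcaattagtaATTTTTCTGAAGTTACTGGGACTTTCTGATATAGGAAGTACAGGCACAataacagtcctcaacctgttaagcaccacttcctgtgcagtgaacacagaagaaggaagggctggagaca
Ms4a6c: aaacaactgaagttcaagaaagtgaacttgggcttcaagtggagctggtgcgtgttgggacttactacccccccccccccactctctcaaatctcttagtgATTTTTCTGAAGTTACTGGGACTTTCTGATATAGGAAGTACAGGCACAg
Neither window of 250 bases held the letters GAGGAA or TATAAA. Nor did either hold those searched for the AP-1 motif or the interferon-stimulated response element, which occur in 6.7% and 3.0% of all windows. Other forms of an ETS core, such as the letters GGAA in the shared run, were not searched. That says only that these letters are not in the windows. Of the 50-base words in Ms4a6c transcripts 10.5% also occur in another gene, against 3.6% for Ms4a6b and 2.5% for Ms4a6d. Ms4a6c also differs in the tables themselves: its mean coverage was 0.693 to 0.788 of what its FPKM would give elsewhere in the same library, whereas this ratio was 0.977 to 1.001 for the other 6 genes. With depth-scaled coverage in place of TPM, a setting chosen after seeing the data, its log2 fold change was 0.78 (limma adjusted p = 0.469), close to the 0.80 with FPKM in place of TPM.

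Ms4a8a had the highest fold change of the 7 genes. It lies at the far end of the cluster from the Ms4a6 genes (11067471 to 11081103, minus strand) and had 122.5 TPM in YFP+ M and 42.8 TPM in YFP+ FM, against 47.6 TPM in YFP- M and 35.7 TPM in YFP- FM. The YFP+ M library stands above the others, while the YFP+ FM library lies between the YFP- libraries, so the groups overlap. The log2 difference was 1.35 for titles in M and 0.25 for titles in FM. The mean was 82.7 ± 56.4 TPM in YFP+ and 41.7 ± 8.37 TPM in YFP- libraries (SD, n = 2 each), and the log2 fold change of 0.80 (SE 1.01, 95% interval -1.18 to 2.78, limma adjusted p = 0.490) did not pass. It lies 2.53 above the median of all tested genes, higher than 97.7% of them. The fold change was positive under all 16 alternative settings, between 0.05 and 2.51. Several of these, such as other filters or no mean trend, leave it at 0.80 by construction. Ms4a8a was called under 2 settings. These were median-ratio scaling (2.51, limma adjusted p = 0.00101) and quantile normalization with the title start as a block (2.34, limma adjusted p = 0.0180). In the latter, a setting chosen after seeing the data, 6.14% of all tested genes were called higher and 5.31% lower. No 50-base word of its transcripts occurs in another gene, so no annotated copy shares a stretch of that length with it. The 250 bases before its start are shown with the AP-1 motif TGANTCA in capitals, which 6.7% of all windows hold (RefSeq, GRCm38.p6, minus strand, chr19:11081104-11081353).
Ms4a8a: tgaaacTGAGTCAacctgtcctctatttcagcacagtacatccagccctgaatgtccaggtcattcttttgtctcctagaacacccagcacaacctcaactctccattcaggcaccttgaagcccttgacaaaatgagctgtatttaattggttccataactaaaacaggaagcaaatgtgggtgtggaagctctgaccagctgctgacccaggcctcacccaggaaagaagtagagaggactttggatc
The motif lies 244 to 238 bases before the start, and the letters searched for the other 3 motifs were not found in this window.

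Ms4a7 was lower in both YFP+ libraries and close to its YFP- level in the M library. It (11321406 to 11336116, minus strand) had 31.5 TPM in YFP+ M and 10.0 TPM in YFP+ FM, against 36.5 TPM in YFP- M and 46.1 TPM in YFP- FM. The log2 difference was -0.21 for titles in M and -2.09 for titles in FM, and the fold change of -1.15 (SE 1.07, limma adjusted p = 0.355) did not pass and lies 0.58 above the median of all tested genes. Its sign turned under quantile normalization (0.63), median-ratio scaling (0.52) and cyclic loess (0.64), without a call. In a list of border-associated macrophage genes, a brain macrophage type for which Ms4a7 serves as a marker, 0 of 7 tested genes were called higher and 4 lower. Of all tested genes 39.5% were called lower. The border-associated genes summed to 203 and 54.4 TPM in the YFP+ M and FM libraries, against 297 and 938 TPM in the YFP- M and FM libraries. Their part in the level of Ms4a7 was not tested. Of its RefSeq promoter windows, 1 of 2 holds the letters TGATTCA, at 81 to 75 bases before the start. They match the letters searched for AP-1, TGANTCA, which leave the central base free.

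The make-up of the Ms4a transcripts within a library is likewise free of such a factor. Ms4a8a took 25.6% and 19.2% of the summed TPM of the 7 genes in the YFP+ M and FM libraries, against 8.9% and 8.5% in the YFP- M and FM libraries. Ms4a6b took 16.1% and 13.3% in YFP+ libraries, against 35.8% and 27.2% in YFP- libraries. Ms4a4b took 2.3% and 0.9% in YFP+ libraries, against 9.2% and 7.4% in YFP- libraries. The share did not overlap between groups for any of the 7 genes: it was higher in both YFP+ libraries for Ms4a8a, Ms4a6c and Ms4a6d and lower for Ms4a6b, Ms4a7, Ms4a4b and Ms4a4c. Of all tested genes, set against the same sum of the 7 genes, 74.1% were lower in both YFP+ libraries and 4.24% higher in both, so a lack of overlap is the common case. The shares of a library sum to a whole, so some must fall where others rise, and the exact permutation p of each was 0.333, the smallest possible. Among single pairs, Ms4a8a stood at 11.2 and 22.1 times Ms4a4b in the YFP+ M and FM libraries, against 0.968 and 1.15 times in the YFP- M and FM libraries. These are the members with the highest and lowest fold change, so a wide gap follows from the choice of pair. The share of other pairs with such a gap was not computed.

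**Figure D2:**
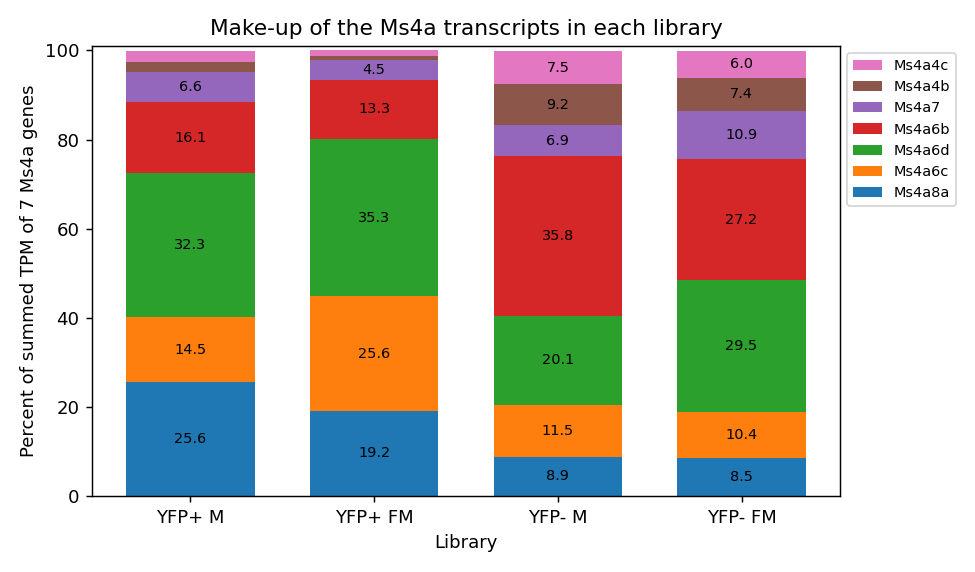
Percent of the summed TPM of the 7 Ms4a genes that each gene takes in each library, with the YFP+ libraries on the left and shares under 4% unlabelled. Ms4a8a takes 25.6% and 19.2% in YFP+ libraries, against 8.9% and 8.5% in YFP- libraries, and Ms4a6b 16.1% and 13.3% against 35.8% and 27.2%.

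Relative to the median of all tested genes, Ms4a8a, Ms4a6c, Ms4a6d and Ms4a7 lay above it and Ms4a4b below it under all 16 alternative settings. These are not 16 separate checks. Without a mean trend or with the title start as a block, fold change and median are those of the main fit by construction. Quantile normalization gives the same values with and without the block. For Ms4a8a this distance was 2.00 to 3.12, for Ms4a6c 1.48 to 2.59 and for Ms4a6d 0.88 to 2.25 on the log2 scale. For Ms4a7 it was 0.05 to 1.11, and for Ms4a4b -1.56 to -0.47. Ms4a6b lay above the median under 10 settings and below it under 6, and Ms4a4c below it under 15 and above it under 1.

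**Figure D3:**
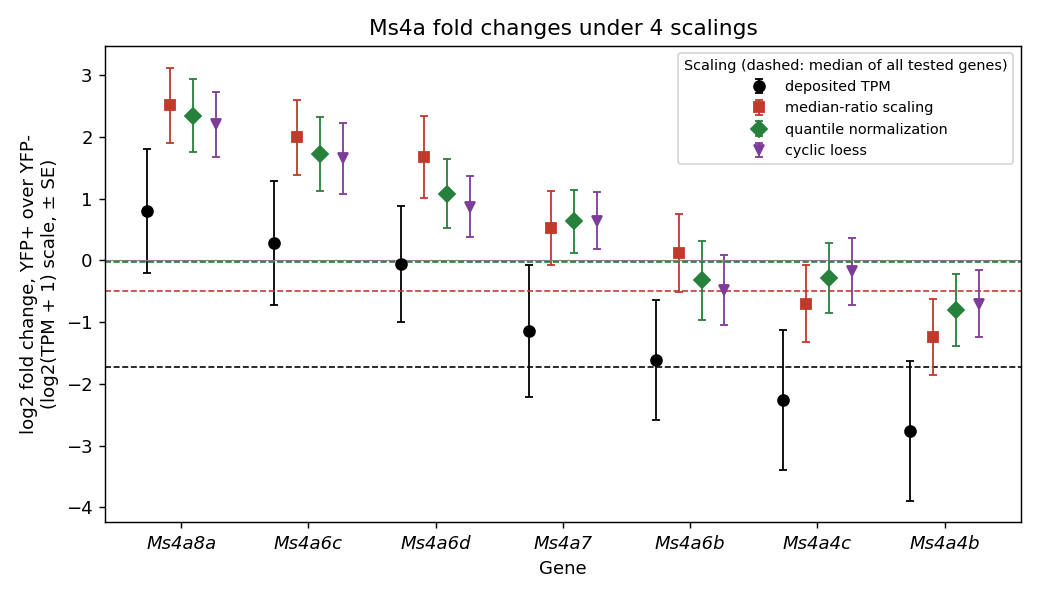
Log2 fold change of YFP+ over YFP- libraries (± limma SE) of each Ms4a gene on the deposited TPM values and under 3 other scalings, with dashed lines at the median of all tested genes under each. Ms4a8a, Ms4a6c and Ms4a6d lie above the median and Ms4a4b below it under all 4, while the sign of Ms4a6d, Ms4a7 and Ms4a6b turns with scaling.

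Most of the rest of the family was at or near 0. RefSeq places 21 Ms4a genes within 679 kb of chromosome 19, and 16 had a row in the tables. Of the other 9, Ms4a1 was lower in YFP+ libraries, with 15.5 and 1.25 TPM in the YFP+ M and FM libraries, against 47.7 and 55.8 TPM in the YFP- M and FM libraries (log2 fold change -3.11, SE 1.12, limma adjusted p = 0.0209), a call made under 9 of 16 alternative settings. Of 5 tested genes of a B cell list, Ms4a1 among them, 0 were called higher and 2 lower, where 39.5% of all tested genes were called lower. The B cell list summed to 532 and 77.5 TPM in YFP+ and 605 and 617 TPM in YFP- libraries. Ms4a3, a gene of granulocyte and monocyte precursors, had 1.21 and 2.67 TPM in YFP+ and 3.53 and 5.90 TPM in YFP- libraries and did not pass (-0.97, limma adjusted p = 0.290), with the sign turned under quantile normalization (0.99), median-ratio scaling (0.40) and cyclic loess (0.95). Ms4a2, Ms4a5, Ms4a10, Ms4a13 and Ms4a18 were listed at 0 in all 4 libraries, Ms4a15 reached 0.0918 TPM in YFP+ M alone, and Ms4a4d 0.120 TPM in YFP- M alone. Tmem176a and Tmem176b, which code for related ion channel proteins elsewhere in the genome, stood higher than any Ms4a gene. Tmem176b had 890.3 and 828 TPM in the YFP+ M and FM libraries, against 878 and 711 TPM in the YFP- M and FM libraries, a log2 fold change of 0.12 (SE 0.75, 95% interval -1.35 to 1.59, limma adjusted p = 0.893) that lies 1.85 above the median of all tested genes and that turned under quantile normalization (-0.04) and cyclic loess (-0.17).

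**Figure D4:**
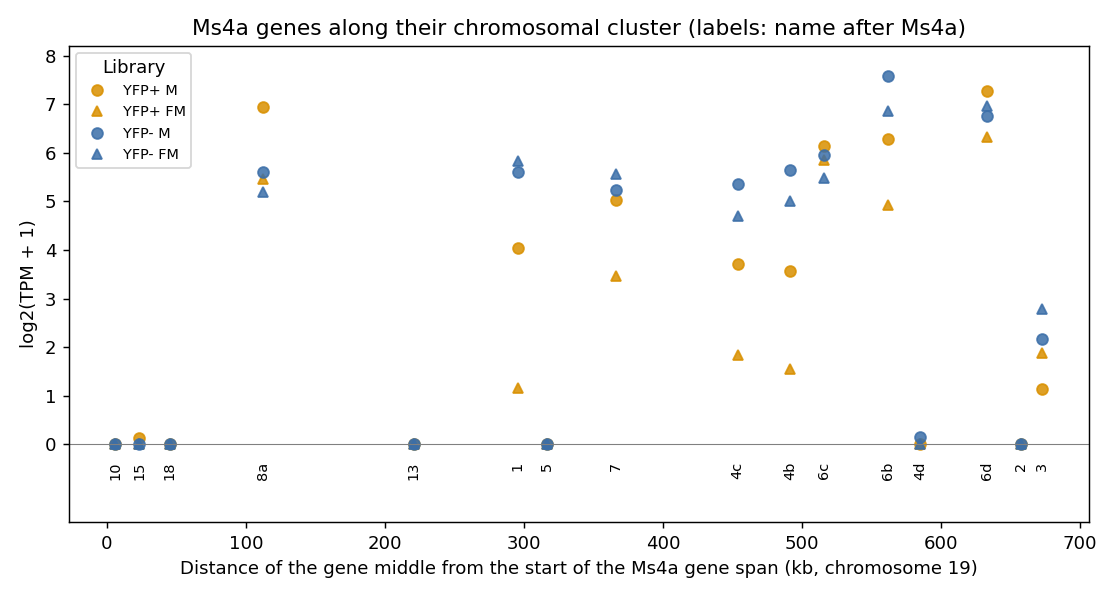
Level, as log2(TPM + 1), of the 16 Ms4a genes with a row in each library, by distance from the start of the gene span in kb, YFP+ in orange and YFP- in blue. Expressed genes lie between others listed at 0, and levels range up to 190.5 TPM for Ms4a6b in YFP- M.

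Genes that code for partners of Ms4a proteins, with related receptors and adaptors, were called in both directions. Of 9 tested genes in this list 3 were called higher and 3 lower, Ms4a1 among the lower, beside 0.522% and 39.5% of all tested genes. The signs of these 6 genes held under all 16 alternative settings, but only Trem2 was called under every one: Tyrobp and Cd14 were called under 9, Clec7a under 5 and Fcer1g under 4. Among adaptor chains, Tyrobp, which carries the signal of TREM2, had 8701 and 12597 TPM in the YFP+ M and FM libraries, against 3561 and 1792 TPM in the YFP- M and FM libraries (log2 fold change 2.05, SE 0.60, limma adjusted p = 0.00463), and the Fc receptor gamma chain Fcer1g was called as well (1.51, SE 0.64, limma adjusted p = 0.0483). The endotoxin co-receptor Cd14 rose (1.90, limma adjusted p = 0.0239). Vsig4 had 2401 and 1633 TPM in the YFP+ M and FM libraries, against 1335 and 587 TPM in the YFP- M and FM libraries, and did not pass (1.16, limma adjusted p = 0.159). Among receptors that fell, Clec7a, which codes for Dectin-1, had 44.8 and 14.2 TPM in YFP+ and 91.4 and 249 TPM in YFP- libraries (-2.52, limma adjusted p = 0.0338), and Trem2 had 73.5 and 10.3 TPM in YFP+ and 1099 and 1090.4 TPM in YFP- libraries (-5.24, limma adjusted p = 4.85e-06). Nlrp3 (-0.66, limma adjusted p = 0.607) and the kinase Syk (-1.07, limma adjusted p = 0.331) did not pass and turned sign with scaling, Nlrp3 under quantile normalization (1.13), cyclic loess (1.28) and median-ratio scaling, and Syk under quantile normalization (0.13) and median-ratio scaling (0.66). Fcer1a, the alpha chain of the IgE receptor, reached 0.107 TPM at most.

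By the root mean square difference of log2(TPM + 1) over the 4 libraries, after removing each gene's own mean, the genes nearest to Ms4a6d among 11370 were Sdf2l1 (0.057), Ifnar2 (0.070), Nr2f6 (0.078), Capzb (0.083) and Cbr3 (0.085). Nearest to Ms4a6b were Commd2 (0.032), Bcas2 (0.044), Clec4a2 (0.044), Vps25 (0.047) and Dimt1 (0.050). With 4 libraries many genes can share such a pattern, and the distances are a description.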

How the data were processed

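Gene tables of 4 libraries, 1 per library, hold 3 measures per gene. Per the file headers the authors deposited coverage (mean read coverage as a signal per base), FPKM and TPM, and the TPM columns sum to 1000000. The submitters' processing notes name HISAT and give GRCm38 and mm10 as builds. Which program wrote the tables, with which annotation and strand setting, is not stated in those sources. No read counts are given, so depth in reads is unknown and counting intervals were not computed.

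Groups come from the genotype label. Rows of the same name were summed (166 names, none of them a member). The 12251 genes reaching 1 TPM in 2 or more libraries were tested, two-sided, on log2(TPM + 1) by limma 3.58.1 (R 4.3.3), with YFP group as the only term and a variance trend on the mean, with Benjamini-Hochberg adjustment over all of them and a threshold of 0.05. The fit was tested on simulated data. Members and gene lists were chosen with earlier results of these data known. The rule for named genes takes all members, allows any gene above 1 TPM in a library from the family, neighbour and partner lists (the rest are counted) and up to 4 of each marker list, and takes the 5 genes nearest in pattern to each of the 2 most abundant members. Family and partner genes under 1 TPM, listed at 0 included, were named after their values were seen. Alternatives were quantile normalization, cyclic loess, median-ratio scaling over genes above 1 TPM in every library, FPKM, a pseudocount of 0.1, filtering at 5 TPM or not at all, limma without a trend, the title start as a block, genes on a single row, and each library left out. Depth-scaled coverage and quantile normalization with the block were chosen after seeing the data. Other filters, no trend, the block and single rows change SE and calls but leave a gene's own fold change as it is. A sign that held under all alternatives was therefore not tested separately by each.

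Promoter windows, 250 bases before each start, are from RefSeq (GRCm38.p6). Motifs were searched on both strands. All but Ms4a6d of the 8 genes had a window. Transcripts are from GENCODE M21 (GRCm38), aligned with Biopython 1.88. Tables were handled in Python 3.11.15 (pandas 2.3.3, NumPy 2.4.6), permutation tests run in SciPy 1.17.1 and figures drawn with matplotlib 3.10.9.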

Additional observations from a re-analysis of the deposited data

Results flagged for a closer look

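For Ms4a6d the difference between YFP+ and YFP- libraries had opposite signs for the title starts M and FM. The log2 difference of YFP+ minus YFP- was 0.53 between the M libraries (154.5 TPM in YFP+ and 106.8 TPM in YFP-) and -0.65 between the FM libraries (78.8 TPM in YFP+ and 124.4 TPM in YFP-). The title starts are not taken to pair the libraries, so this is a description by label. With 1 library for each group and title start, the difference between these 2 values was not tested. Over all tested genes the median difference was -1.01 for titles in M and -2.48 for titles in FM, so Ms4a6d lay above the median in both.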

How the results depend on the processing

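Counts of calls moved with many choices and less with others. Among all tested genes, those called higher numbered 51 with a pseudocount of 0.1, 61 without a filter and 57 with a filter at 5 TPM. They numbered 65 under cyclic loess and 57 without a mean trend. Those called lower numbered 5055 without a filter, 5641 without a mean trend, 3461 with FPKM and 3463 with depth-scaled coverage. Larger moves were as follows. Of all tested genes, 64 were called higher on the deposited values, against 148 under quantile normalization, 658 under median-ratio scaling, 115 with FPKM, 117 with depth-scaled coverage, 23 with the title start as a replicate block, 752 with quantile normalization and the block, and 14 to 105 with a library left out. Called lower were 4834, against 3078 with a pseudocount of 0.1, 2902 with a filter at 5 TPM, 205, 2195 and 40 under quantile normalization, median-ratio scaling and cyclic loess, 1726 with the replicate block, 650 with quantile normalization and the block, and 865 to 8273 with a library left out. Deviations from the group mean in libraries of the same title start had a correlation of -0.01 over genes. With 2 libraries per group this cannot show whether libraries of the same start share animals or a batch. The starts are not taken to pair the libraries, since the labels do not explain them.

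Of the members, 0 were called higher on the deposited values, 3 under median-ratio scaling and 1, Ms4a8a, under quantile normalization with the block. Of all tested genes, 0.522%, 5.37% and 6.14% were called higher in these fits, in that order. Called lower was 1, Ms4a4b, where 39.5% of all tested genes were called lower. Without a mean trend 2 were, Ms4a4b and Ms4a4c, where 46.0% of all tested genes were called lower. The count was 0 with a pseudocount of 0.1, without a filter, with a filter at 5 TPM, and with FPKM or depth-scaled coverage. It was 0 as well under each of the 3 scalings and with either block. In these fits with 0 members, 0.327% (cyclic loess) to 31.6% (filter at 5 TPM) of all tested genes were called lower. With a library left out 0 to 2 were called lower, the 2 without YFP+ M, where 67.5% of all tested genes were called lower. The cause of these changes was not tested. Signs turned for Ms4a7 under quantile normalization (0.63, also with the block), median-ratio scaling (0.52) and loess (0.64), for Ms4a6b under median-ratio scaling (0.12), and for Ms4a6d under quantile normalization (1.08, also with the block), median-ratio scaling (1.67), loess (0.87), FPKM (0.48), depth-scaled coverage (0.48) and without YFP+ FM (0.42) or YFP- FM (0.05), with a range of -0.54 to 0.42 over the libraries left out. Genes of low level, such as Ms4a4b and Ms4a4c in YFP+ FM with a coverage of 4.07 and 5.44, are the least precise.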

Other observations

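Of the genes inside or beside the Ms4a cluster that are not Ms4a genes, 1 passed the test. Within the cluster and 250 kb to either side RefSeq places 38 such genes, of which 19 had a row and 12 were tested. Of these 12, 0 were called higher and 1 lower, beside 0.522% and 39.5% of all tested genes. The 1 called was the predicted gene Gm8369 between Ms4a6c and Ms4a6b (log2 fold change -1.93, limma adjusted p = 0.0423). It lies 0.20 below the median of all tested genes and was called under 3 of 15 alternative settings. The transporter Slc15a3, a histidine and peptide carrier of lysosomes, had 450.4 and 439 TPM in the YFP+ M and FM libraries, against 95.2 and 229 TPM in the YFP- M and FM libraries, without passing (1.58, limma adjusted p = 0.115). Its fold change was positive under all 16 alternative settings and called under 3. Under median-ratio scaling Slc15a3 (3.32, limma adjusted p = 0.000378), Tmem132a (3.03, limma adjusted p = 3.61e-05) and AW112010 (2.88, limma adjusted p = 0.0164) were called higher. In that fit 5.37% of all tested genes were called higher and 17.9% lower. The T cell surface receptors Cd5 (-2.26, limma adjusted p = 0.0923) and Cd6 (-2.19, limma adjusted p = 0.102) did not pass on the deposited values. Each was called under 2 alternative settings.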
